A study of Rattus norvegicus with 12 samples.

Results

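The genes described here handle bile acids and sterols in the small intestine of the Belgrade rat. The set was named as 10 genes: Slc10a2, Fabp6, Slc51a, Slc51b, Nr1h4, Nr0b2, Npc1l1, Abcg5, Abcg8 and Abca1. A gene was taken up on every probe set whose single symbol in the platform annotation was that gene, and measured levels played no part in the choice. This gave 11 of the 31099 probe sets in the file, covering 8 of the 10 genes. Slc51b and Npc1l1 had no probe set under their symbol and were not analysed here. Abca1 had 4 probe sets and each of the other 7 genes had 1. The series comprises 12 Affymetrix arrays of RNA from mucosal scrapes, in 4 groups of 3: jejunum of b/b rats, jejunum of +/b rats, duodenum of b/b rats and duodenum of +/b rats. Belgrade rats carry the b allele, a mutation of Slc11a2 that impairs the iron and divalent metal transporter DMT1, and b/b homozygotes are known to be anaemic. All 4 groups carried at least 1 b allele, so the set holds no wild type. The labels write the heterozygote as +/b in the jejunum and as +b in the duodenum, and they give no age, sex, diet or treatment. Each array was made from a group of rats rather than from a single animal, and 3 such groups per genotype supplied both segments.

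Bile acids are made from cholesterol in the liver, act as detergents for fat in the gut lumen and are taken back up near the end of the small intestine. There the apical transporter Slc10a2 brings them into the enterocyte, Fabp6 carries them through the cytosol, and the paired subunits encoded by Slc51a and Slc51b export them to the portal blood. Inside the cell bile acids bind the nuclear receptor FXR, encoded by Nr1h4, which is known to switch on Fabp6, Slc51a, Slc51b and the corepressor gene Nr0b2 (SHP). Sterols follow another route: Npc1l1 takes up cholesterol from the lumen, Abcg5 and Abcg8 form a heterodimer that pumps sterols back into the lumen, and Abca1 loads cholesterol onto apolipoprotein A-I at the basolateral side. Slc10a2 and Fabp6 are known as markers of the ileum, which was not sampled in this series.

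Promoter sequences were read from RefSeq tables of the rat assembly GRCr8, which held 9 of the 10 genes and not Nr1h4. Each is the 300 bases around the annotated transcription start, written 5′ to 3′ on the gene's own strand, and positions are counted from that start, negative upstream. Capitals mark every match, on either strand, to the motifs searched: the nuclear receptor hexamer AGGTCA and its paired forms, AGATAA of Gata factors and TTTATG of Cdx factors. The promoter of Fabp6 is shown because this gene had the largest difference between segments among the 8 genes. It lies at chr10:28569678-28569977 on the minus strand.
Fabp6: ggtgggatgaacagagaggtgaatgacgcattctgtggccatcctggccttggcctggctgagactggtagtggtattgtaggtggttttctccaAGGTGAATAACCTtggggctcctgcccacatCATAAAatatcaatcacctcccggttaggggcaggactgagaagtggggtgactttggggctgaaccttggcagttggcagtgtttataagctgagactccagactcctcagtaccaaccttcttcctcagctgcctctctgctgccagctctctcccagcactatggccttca
The Slc10a2 promoter, at chr16:91087839-91088138 on the plus strand, is shown for contrast. The gene acts one step before Fabp6 in the same route, and its dim signals did not separate the segments.
Slc10a2: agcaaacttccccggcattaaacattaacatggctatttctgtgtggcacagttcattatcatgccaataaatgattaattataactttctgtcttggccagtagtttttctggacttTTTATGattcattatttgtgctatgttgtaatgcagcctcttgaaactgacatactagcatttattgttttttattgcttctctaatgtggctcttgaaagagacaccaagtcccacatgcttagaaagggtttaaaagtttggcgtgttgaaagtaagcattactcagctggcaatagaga
Abcg5 and Abcg8 are transcribed in opposite directions from a shared stretch of chromosome 6, so 1 sequence serves both. It is given on the plus strand, the strand of Abcg5, at chr6:15717686-15717985.
Abcg5: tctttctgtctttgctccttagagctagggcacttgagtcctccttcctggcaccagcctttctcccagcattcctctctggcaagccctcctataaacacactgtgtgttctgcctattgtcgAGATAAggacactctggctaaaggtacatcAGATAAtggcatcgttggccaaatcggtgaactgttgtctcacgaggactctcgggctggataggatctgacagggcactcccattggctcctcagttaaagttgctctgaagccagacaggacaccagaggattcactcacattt

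The Fabp6 promoter held an inverted pair of AGGTCA hexamers with a spacer of 1 base, the arrangement known to be bound by FXR, when 1 mismatch per hexamer was allowed. The matched letters were AGGTGAATAACCT at -155, chr10:28569870-28569882 on the minus strand. This form occurred in 0.834% of the 33469 rat promoters of the same table and in 1 of the 9 member promoters. Without mismatches the inverted pair occurred in 0.0269% of all promoters and in 0 of the 9. Direct pairs with spacers of 1 and 4 bases had 0 matches among the 9, exact or with 1 mismatch per hexamer. Those exact forms occurred in 0.0538% and 0.00598% of all promoters, and those with mismatches in 2.26% and 1.74%. The single hexamer AGGTCA was found in 1 member promoter, that of Slc51b at -132, against 16.2% of all promoters.
The Cdx motif was present in Fabp6 at -124, in Slc10a2 at -132 and in Abca1 at -120, and in 12.7% of all promoters. The Gata motif occurred at -126 and -96 of Abcg5, and these same letters stand at -85 and -115 of Abcg8, whereas 11.6% of all promoters held it. The annotated starts of Abcg5 and Abcg8, at positions 15717936 and 15717730, leave 205 bases between them, and the 300-base windows share 295 bases. These matches describe the letters of the windows and say nothing of binding in these rats.

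Signals are linear Affymetrix intensities, with MAS5 named for 10 of the 12 arrays, and were scaled here so that the 2% trimmed mean of every array was 500. The array medians then ran from 108.5 to 181.5. Of 15 enterocyte markers 12 had a probe set, and all 12 were at 100 or above on every array, as the label of a mucosal scrape implies. Of 12 markers of the proximal small intestine, all with a probe set, the mean log2 level was 9.36 to 10.34 in b/b jejunum and 9.75 to 10.20 in +/b jejunum, against 12.23 to 12.65 in b/b duodenum and 11.73 to 11.84 in +/b duodenum. Distal markers (13 of 14 with a probe set) ran the other way. Their mean log2 level was 12.13 to 12.54 in b/b jejunum and 11.43 to 12.41 in +/b jejunum, against 9.63 to 10.26 in b/b duodenum and 9.92 to 10.82 in +/b duodenum. Not every marker followed its list. The change from duodenum to jejunum was above 0 for 11 of 13 distal markers in b/b and 10 in +/b rats. It was above 0 for 2 of 12 proximal markers in b/b and 1 in +/b rats. In both genotypes the group means of distal Ces2c and Tff3 and of proximal Gip ran against their lists. In the duodenum 7 of the 12 proximal markers had a genotype effect above 0, higher in b/b. Mean signals of Cybrd1 were 16023 in b/b and 843 in +/b duodenum, and those of Slc40a1 were 15392 and 8248. The part of these genes in the proximal marker level was not tested. Some arrays stood apart. The array of b/b duodenum replicate 1 had a median Spearman correlation of 0.871 with the other arrays, against 0.895 to 0.932 for those. The array of +/b duodenum replicate 2 carried exocrine pancreas transcripts at a mean log2 level of 13.51 over 14 genes, b/b duodenum replicate 3 had 9.05, and the other 10 arrays had 5.75 to 6.77. The arrays of +/b duodenum replicates 2 and 3 were deposited at trimmed means of 51.6 and 126.6, against 500.2 for the others, and were rescaled here by factors of 9.69 and 3.95. Whether they were otherwise processed like the others is not stated.

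Fabp6, the cytosolic bile acid carrier (probe set 1368697_at, gene at chr10:28565054-28569727 in GRCr8), rose in the jejunum relative to the duodenum. Its scaled signal was 327, 5349 and 476 on the b/b jejunum arrays and 497, 375 and 243 on the +/b jejunum arrays. In the duodenum it was 13.3, 51.9 and 72.6 on the b/b arrays and 23.0, 209 and 11.1 on the +/b arrays. Every jejunum array therefore lay above every duodenum array, and a single array, b/b jejunum replicate 2, lay far above all others. The mean was 2050 ± 2858 in b/b jejunum and 371 ± 127 in +/b jejunum, against 45.9 ± 30.1 in b/b duodenum and 80.9 ± 111 in +/b duodenum (SD, n = 3 each). Over both genotypes the jejunum was higher by 3.35 ± 0.65 on the log2(signal + 16) scale (SE; limma, Benjamini-Hochberg adjusted p = 0.0187). Some duodenal signals lie below the pseudocount of 16, and the value ran from 2.54 with a pseudocount of 64 to 3.90 with a pseudocount of 1. Without both rescaled arrays it was 3.68 ± 0.71 (limma adjusted p = 0.0399). This contrast averages the segment effects of both genotypes and was added after the data had been seen. In scrapes of whole mucosa, fewer cells of a type and less RNA per cell cannot be told apart.

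The 6 groups of rats can also be compared with themselves, since each gave both segments. The Fabp6 difference, jejunum minus duodenum, was 3.55, 6.30 and 2.47 on the log2 scale in the b/b rat groups and 3.71, 0.80 and 3.26 in the +/b rat groups, so it was above 0 in 6 of 6. The smallest of them belonged to +/b replicate 2, the group whose duodenum array held pancreatic transcripts and also the highest distal marker level of the duodenum arrays. Within b/b rats alone the difference was 4.11 ± 0.92 (limma adjusted p = 0.0675, 0.00851 with each rat group as a block and 0.0109 with it as a random block). Without both rescaled arrays the b/b adjusted p by limma was 0.0428. Within +/b rats alone it was 2.59 ± 0.92 (limma adjusted p = 0.765, and 0.183 with the block). The larger value in b/b was not separable from the smaller one in +/b, as their difference was 1.52 with a 95% confidence interval from -1.29 to 4.32 (limma adjusted p = 1.00). Without b/b jejunum replicate 2 the b/b value became 2.87 (limma adjusted p = 0.280) and the value over both genotypes 2.73 (limma adjusted p = 0.0301). The call over both genotypes was lost without +/b jejunum replicate 1 (3.23, limma adjusted p = 0.0601) or replicate 2 (3.33, limma adjusted p = 0.0542). Fabp6 passed the minimum mean signal of 100 through its jejunal arrays alone, so its low duodenal values lie where signals are least precise.

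**Figure D1:**
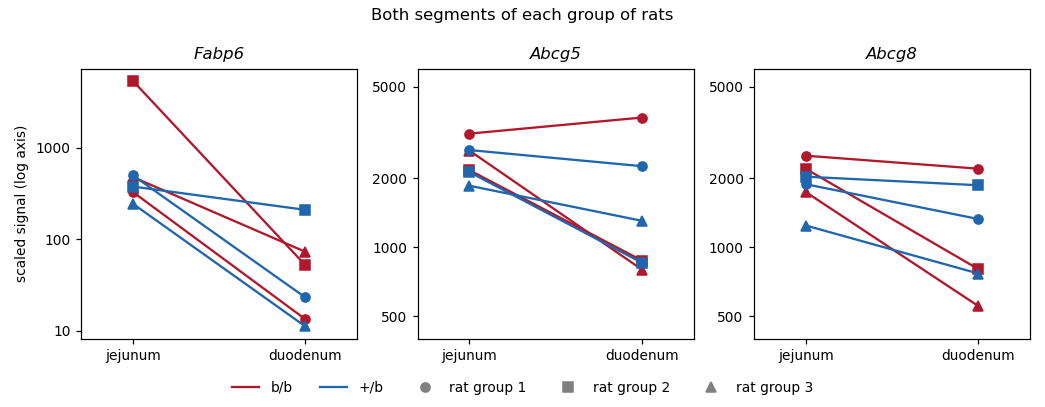
Scaled signal (log axis) of Fabp6, Abcg5 and Abcg8 in the jejunum and duodenum of each of the 6 groups of rats, with a line joining both segments of a group, red for b/b and blue for +/b. Fabp6 and Abcg8 are higher in the jejunum in 6 of 6 groups and Abcg5 in 5 of 6, and the steepest Fabp6 line, at 6.30 on the log2 scale, is that of b/b replicate 2.

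The genes whose levels ran most like those of Fabp6 over the 12 arrays were Pyy, Tmigd1 and Nts. The root mean square differences of their centred log2 values from Fabp6 were 0.97, 0.97 and 1.06, against a standard deviation of 2.10 for Fabp6 itself. Pyy encodes peptide YY and Nts neurotensin, both gut hormones, and all 3 genes were also on the list of distal markers. On b/b jejunum replicate 2, where Fabp6 peaked, Tmigd1 had 4108, Nts 8067 and Pyy 358, the highest signal of each among the 12 arrays. That array also had the highest distal marker level, 12.54, and the lowest proximal marker level, 9.36, of the 12. Its list means were also the highest for fibroblasts and matrix (9.99, against 7.54 to 9.08 on the others), smooth muscle (9.03, against 8.06 to 8.86) and endothelium (7.81, against 6.61 to 7.76). Of these lists 7 of 7, 7 of 7 and 5 of 6 genes had a probe set. In group means, b/b jejunum was the lowest of the 4 groups for the muscle gene Cnn1 (87.3) and the endothelial gene Vwf (27.1). The part of these cell types in the Fabp6 level was not tested. List means of Paneth cell markers moved with segment as well (mean log2, 6 of 7 genes with a probe set). They were 9.93 to 11.11 in b/b jejunum and 10.68 to 11.23 in +/b jejunum. In the duodenum they were 8.47 to 9.44 in b/b and 9.36 to 9.59 in +/b rats. Mmp7, Defa24, Lyz2 and Pla2g2a had higher group means in the jejunum. Reg3g went the other way, with 1941 in b/b and 2385 in +/b jejunum, against 2146 and 3220 in the duodenum. Defa5 was dim, with group means of 14.0 to 47.2. How much the position of a scrape along the gut contributes to the Fabp6 levels was not tested.

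**Figure D2:**
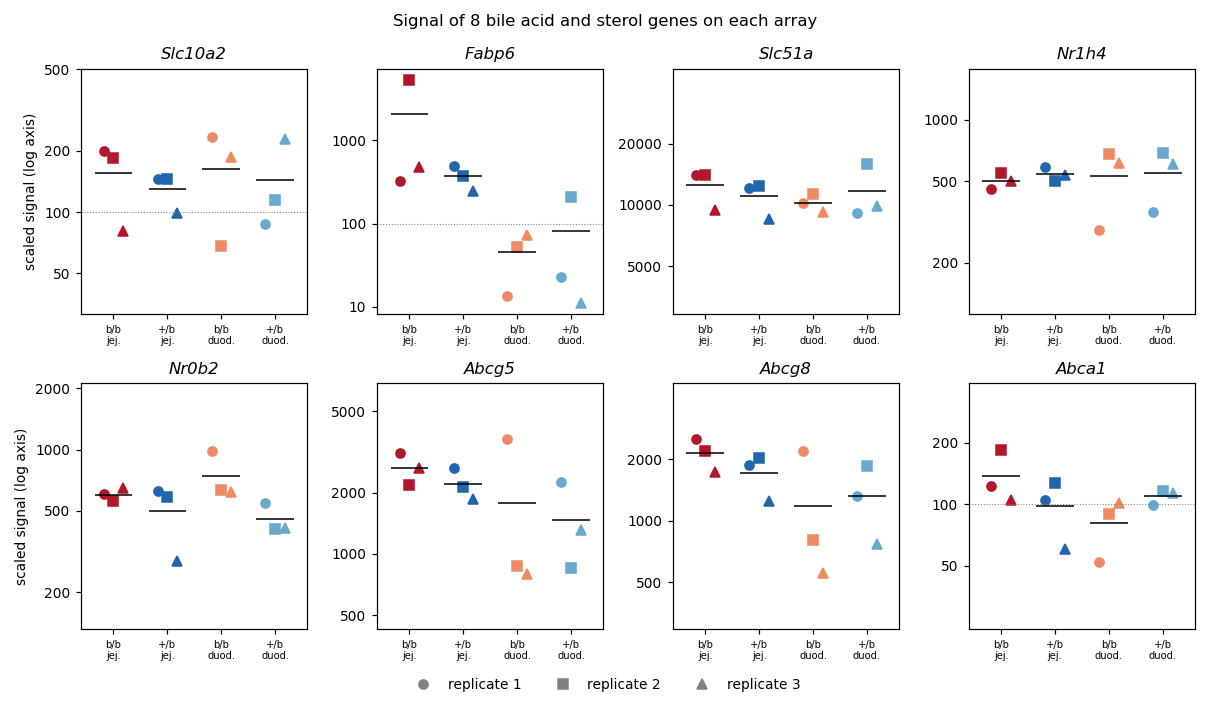
Scaled signal (log axis) of the brightest probe set of each of the 8 measured genes on each array. The groups from left to right are b/b jejunum, +/b jejunum, b/b duodenum and +/b duodenum, symbols mark replicates, bars mark group means, and the dotted line is the minimum mean signal of 100. The jejunum and duodenum arrays separate for Fabp6 and overlap for the other 7 genes.

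The gene of the uptake step was dim and showed no such pattern. Slc10a2, the apical sodium-dependent bile acid transporter (1368745_at, chr16:91088089-91111025), had signals of 200.1, 183 and 80.6 in b/b jejunum and 145, 145 and 99.1 in +/b jejunum. In the duodenum it had 234, 68.2 and 187 in b/b and 87.4, 114 and 228 in +/b rats. All 4 groups overlapped. These signals stood at percentile 37.7 to 62.5 of the probe sets on their own arrays. Detection calls were not used, so whether the gene was expressed in these segments was not tested. The group means spanned 0.17 on the log2 scale, less than the pooled within-group standard deviation of 0.63. The difference between segments was -0.01 ± 0.49 in b/b and -0.05 ± 0.49 in +/b rats, and over both genotypes the 95% confidence interval ran from -0.77 to 0.71. Genotype effects were 0.16 ± 0.49 in the jejunum and 0.13 ± 0.49 in the duodenum.

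Slc51a, the alpha subunit of the basolateral exporter (1378288_at, chr11:81804141-81818539), gave bright signals on every array. They were 14093, 13974 and 9455 in b/b jejunum and 12051, 12442 and 8565 in +/b jejunum. Those of the duodenum were 10184, 11336 and 9207 in b/b and 9169, 15868 and 9934 in +/b rats. The groups overlapped, and their means spanned 0.27 on the log2 scale against a within-group standard deviation of 0.32. The segment difference was 0.27 ± 0.25 in b/b and -0.06 ± 0.25 in +/b rats. The genotype effect was 0.18 ± 0.25 in the jejunum and -0.15 ± 0.25 in the duodenum. The highest array, +/b duodenum replicate 2, is also the one that held pancreatic transcripts.

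Among the regulators, Nr1h4, the bile acid receptor FXR (1369073_at, chr7:25733471-25829440), was even across the 4 groups. Its signals were 459, 547 and 499 in b/b jejunum and 585, 505 and 539.8 in +/b jejunum, against 290.3, 681 and 618 in b/b duodenum and 352, 688 and 607 in +/b duodenum. In both duodenal groups replicate 1 was the low array. The group means spanned 0.12 on the log2 scale, the smallest span of the 8 genes, and the 4 differences between groups lay between -0.11 and 0.04 with an SE of 0.31.

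Nr0b2, the FXR-induced corepressor SHP (1368376_at, chr5:151063160-151066475), had the largest genotype difference of the 8 genes in the duodenum. There its signals were 981, 631 and 619 in b/b rats, against 544, 408 and 412 in +/b rats, and the lowest b/b array lay above the highest +/b array. The means were 744 ± 206 in b/b and 455 ± 77.2 in +/b duodenum (SD, n = 3 each), a difference of 0.67 ± 0.29 on the log2 scale with a 95% confidence interval from 0.06 to 1.28. The unadjusted p was 0.0346 and the limma adjusted p was 0.789, so the difference did not pass the test across all probe sets. Arrays of the genotypes failed to overlap for 8.7% of all probe sets tested in this comparison. Some marker lists also separated these arrays. Crypt stem markers had a mean log2 level of 7.52 to 8.10 in b/b and 8.45 to 8.94 in +/b duodenum, though Axin2 was higher in b/b (479 and 419). Blood and reticulocyte markers had 7.69 to 8.51 in b/b and 6.38 to 6.79 in +/b duodenum. Enterocyte markers overlapped, at 13.62 to 14.85 and 13.89 to 14.49. The part of these cells in the Nr0b2 level was not tested. In the jejunum the signals were 603, 557 and 646 in b/b rats and 623, 588 and 284 in +/b rats, which overlapped, and the difference was 0.34 ± 0.29 (limma adjusted p = 1.00). Without b/b duodenum replicate 1, the array that stood apart, the duodenal difference was 0.46 (limma adjusted p = 0.671). The signals of 408 and 412 come from the rescaled arrays, and without both of these the difference was 0.41 ± 0.41 (limma adjusted p = 0.848).

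The sterol exporter subunits Abcg5 (1369455_at, chr6:15717936-15743376) and Abcg8 (1369440_at, chr6:15698448-15717730) both had higher means in the jejunum. Abcg5 signals were 3125, 2166 and 2635 in b/b jejunum and 2650.3, 2125 and 1853 in +/b jejunum, against 3672, 876 and 800.2 in b/b duodenum and 2255, 857 and 1304 in +/b duodenum. Abcg8 signals were 2504, 2192 and 1737 in b/b jejunum and 1881, 2029 and 1243 in +/b jejunum, against 2199, 803 and 554 in b/b duodenum and 1327, 1863 and 768 in +/b duodenum. For both genes b/b duodenum replicate 1 was high while the other b/b duodenum arrays were the lowest or among the lowest of the 12, so the segments overlapped. The Abcg5 and Abcg8 levels differed by a root mean square of 0.50 over the arrays after centring. The gene whose levels ran most like those of Abcg8 was Gramd1b, which encodes a cholesterol carrier between membranes, at 0.19, followed by Nr2f6 and Unc13b at 0.27 each.

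Abcg8 was higher in the jejunum by 1.08 ± 0.42 in b/b rats (limma adjusted p = 0.388) and by 0.43 ± 0.42 in +/b rats (limma adjusted p = 0.966). Over both genotypes the Abcg8 difference was 0.76 ± 0.30 (limma adjusted p = 0.304). Set against the same group of rats, Abcg8 was higher in the jejunum in 6 of 6 groups, by 0.19, 1.43 and 1.62 in b/b and by 0.50, 0.12 and 0.68 in +/b. When each rat group was its own block these differences passed the test, with a limma adjusted p of 0.0453 in b/b rats and 0.0327 over both genotypes. With the rat group as a random block they did not, at a limma adjusted p of 0.115 in b/b rats and 0.0882 over both genotypes. Abcg5 was higher in the jejunum in 5 of 6 groups of rats, with differences of -0.23, 1.29 and 1.70 in b/b and 0.23, 1.29 and 0.50 in +/b. Its difference was 0.92 ± 0.47 in b/b rats (limma adjusted p = 0.569) and 0.80 ± 0.33 over both genotypes (limma adjusted p = 0.340), and with the block it still missed the threshold (0.174 and 0.0699). Without b/b duodenum replicate 1, Abcg5 was higher by 1.62 (limma adjusted p = 0.0305) and Abcg8 by 1.64 (limma adjusted p = 0.0343) in b/b rats. Without both rescaled arrays, the Abcg5 difference in +/b rats was -0.04, against 0.68 ± 0.47 with them.
Enterocyte markers moved with the same replicates. Their mean log2 level was 14.63 in b/b jejunum, 14.43 in +/b jejunum, 14.85 in b/b duodenum and 14.49 in +/b duodenum on replicate 1, the highest array of each group, and 13.47 to 14.12 on the other 8 arrays. Goblet markers were also highest on replicate 1 in b/b jejunum (13.70), +/b jejunum (13.77) and b/b duodenum (13.81). In +/b duodenum they were at 13.537 on replicate 1 and 13.539 on replicate 2. Abcg5 was likewise highest on replicate 1 in 4 of 4 groups and Abcg8 in 2 of 4. Among the other members Nr0b2 was so in 3 of 4 groups and Slc10a2 in 2. Fabp6, Slc51a and Nr1h4 were so in 1 group each and Abca1 (1383355_at) in 0. The part of the enterocyte or goblet content in these levels was not tested. Genotype effects on the pair were small beside their errors: for Abcg5 0.26 ± 0.47 in the jejunum and 0.01 ± 0.47 in the duodenum, and for Abcg8 0.33 ± 0.42 in the jejunum and -0.31 ± 0.42 in the duodenum.

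Abca1, the cholesterol efflux transporter (chr5:72473676-72596563), was dim on all 4 of its probe sets. The brightest, 1383355_at, gave 123, 185 and 105 in b/b jejunum and 105, 128 and 60.4 in +/b jejunum, against 51.9, 89.5 and 101.5 in b/b duodenum and 98.7, 116 and 114 in +/b duodenum. In b/b rats the jejunum arrays all lay above the duodenum arrays, by a narrow margin. That difference was 0.67 ± 0.42 (limma adjusted p = 0.678), and in +/b rats it was -0.19 ± 0.42. The other 3 probe sets, 1382431_at, 1394490_at and 1384381_at, fell below the minimum mean and ranged from 23.1 to 124, 17.8 to 122 and 2.85 to 164. In a fit without the minimum their b/b segment differences were 0.01 ± 0.58, -0.28 ± 0.59 and -0.19 ± 0.76, so the probe sets of Abca1 disagreed on the direction.

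**Figure D3:**
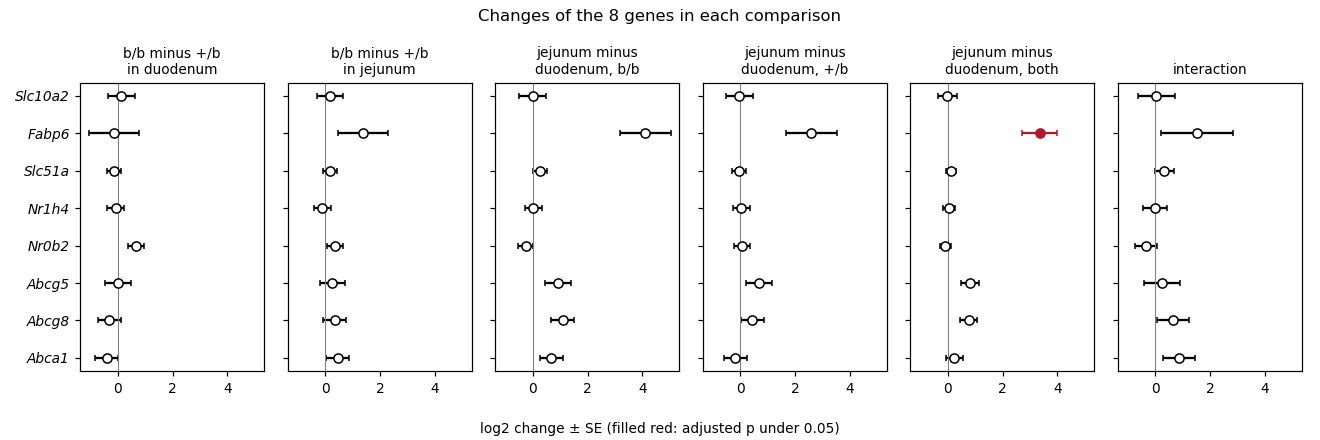
Log2 change ± SE of the 8 genes (limma) in each comparison: b/b minus +/b in the duodenum and in the jejunum, jejunum minus duodenum in b/b, in +/b and over both genotypes, and the interaction (genotype effect in the jejunum minus that in the duodenum). The single filled red point is Fabp6 over both genotypes, 3.35 ± 0.65, and the Nr0b2 change in the duodenum is 0.67 ± 0.29.

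By genotype, 0 of the 8 genes changed in the duodenum by limma at an adjusted p under 0.05, where 0.0396% of all probe sets tested did. The unadjusted p was under 0.05 for 1 gene, Nr0b2, against 6.17% of all probe sets. In the jejunum 0 of 8 changed, where 0.0339% of all did, and 0 had an unadjusted p under 0.05, against 1.34% of all. The median change of the 8 was 0.29 in the jejunum, with 7 of 8 above 0, and -0.11 in the duodenum, with 3 of 8 above 0. The medians of all probe sets were -0.03 in the jejunum and -0.05 in the duodenum, with 45.5% and 44.5% of them above 0. The 8 values of a segment come from the same arrays and are not independent. The largest jejunal genotype value was that of Fabp6, 1.37 ± 0.92, and it rested on 1 array: without b/b jejunum replicate 2 it was 0.14. The arrays of the genotypes overlapped in the jejunum for all 8 genes, while 7.9% of all probe sets did not overlap.

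By segment, 0 of 8 genes passed in b/b rats and 0 of 8 in +/b rats, where 0.763% and 0.0565% of all probe sets did. The unadjusted p was under 0.05 for 2 genes in b/b, Fabp6 and Abcg8, and for 1 gene in +/b, Fabp6, against 9.77% and 5.36% of all probe sets. With that block 2 genes passed in b/b rats, Fabp6 and Abcg8, and 0 in +/b rats, where 2.44% and 0.486% of all probe sets did. Fabp6 and Abcg8 also passed over both genotypes with the block, where 4.49% of all did. With the block as random, Fabp6 alone of the 8 passed in b/b rats and over both genotypes. The share of all probe sets that passed with the random block is not given here, so this count cannot be set against it. The same holds for the random-block counts of the related lists below. Jejunum and duodenum arrays did not overlap for 2 genes in b/b, Fabp6 and Abca1, and for 1 in +/b, Fabp6, against 14.8% and 10.8% of all probe sets. The median change was 0.47 in b/b and 0.05 in +/b rats, against 0.07 and 0.05 over all probe sets. Over both genotypes 1 of 8 passed, Fabp6, where 1.4% of all probe sets did, and its 6 jejunum and 6 duodenum arrays were apart, as for 1.74% of all. For the interaction 0 of 8 passed and 0 had an unadjusted p under 0.05, where 0% and 1.73% of all probe sets did. The comparisons share arrays, so their values are not independent of each other.

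The order of the group means differed from gene to gene. For Fabp6 and Abcg8 it ran, from high to low, b/b jejunum, +/b jejunum, +/b duodenum, b/b duodenum, and for Abcg5 the duodenal groups stood the other way round. Nr0b2 had b/b duodenum highest and +/b duodenum lowest. The arrays of neighbouring groups in these orders overlapped for all 8 genes, except that Fabp6 in +/b jejunum lay above +/b duodenum on every array.

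Other genes of the same pathways were read from lists of genes that are not among the 10. Of 38 genes of bile acid handling and signalling, 21 were tested. In b/b rats, where 0.763% of all probe sets passed, 1 rose and 0 fell in the jejunum. It was Abcb1a, a P-glycoprotein drug and lipid efflux pump, at 1.59 ± 0.32 (limma adjusted p = 0.0344), with mean signals of 4247 in jejunum and 1397 in duodenum. In +/b rats 0 changed by limma, with 3 at an unadjusted p under 0.05, against 5.36% of all probe sets. Abcb1a was there at 0.98 ± 0.32 (limma adjusted p = 0.704, 0.0486 with each rat group as a block and 0.169 with it as random). Over both genotypes Abcb1a rose by 1.29 ± 0.23 (limma adjusted p = 0.00997). Abcc2, an apical exporter of organic anions, fell by 0.80 ± 0.17 on the log2 scale over both genotypes (limma adjusted p = 0.0328). So 1 of the 21 rose and 1 fell, where 1.4% of all probe sets passed. In b/b rats Abcc2 was at -0.82 ± 0.19 with each rat group as a block (limma adjusted p = 0.0453, and 0.0508 with it as random). Slco2b1, an uptake transporter of organic anions, was at 0.62 ± 0.16 over both genotypes (limma adjusted p = 0.0792, and 0.0357 with the block). By genotype 0 of the 21 changed by limma in either segment. At an unadjusted p under 0.05 there were 0 in the jejunum and 1 in the duodenum, against 1.34% and 6.17% of all probe sets. That gene was Abcb1a, at -0.74 ± 0.32 (limma adjusted p = 0.789).

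Of 40 genes of sterol uptake, sensing and export, 30 were tested. By limma 0 changed by segment within either genotype. At an unadjusted p under 0.05 there were 5 in b/b and 1 in +/b rats, against 9.77% and 5.36% of all probe sets. With the rat group as a block, where 2.44% of all probe sets passed, 3 rose in the jejunum of b/b rats and 0 fell. These were Mylip, a ubiquitin ligase that degrades the LDL receptor, at 1.33 ± 0.24 (limma adjusted p = 0.0167), Gramd1b at 1.15 ± 0.22 (0.0218) and Cd36, a fatty acid and lipid uptake receptor, at 1.54 ± 0.31 (0.0265). With the block as random, Mylip alone of the 30 passed in b/b rats (limma adjusted p = 0.0114). Over both genotypes 1 rose without the block, where 1.4% of all probe sets passed. It was Mylip, by 0.93 ± 0.21 (limma adjusted p = 0.0468), with mean signals of 952 in jejunum and 514 in duodenum. With the block 4 rose, where 4.49% of all passed, and with the block as random 3 rose. Gramd1b, the gene most like Abcg8 in its levels, was at 0.90 ± 0.28 over both genotypes (limma adjusted p = 0.162, and 0.00832 with the block). By genotype 0 changed by limma in either segment, with 1 at an unadjusted p under 0.05 in the jejunum, Stard5, a sterol carrier, at -0.67 ± 0.26 (limma adjusted p = 1.00), and 0 in the duodenum.

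Cholesterol synthesis genes had lower medians in the jejunum, the other direction from Abcg5 and Abcg8. Of 24 genes 21 were tested, and their median jejunum minus duodenum change was -0.61 in b/b rats, with 3 of 21 above 0, and -0.54 in +/b rats, with 2 of 21 above 0, against 0.07 and 0.05 over all probe sets. Of all probe sets 58.1% in b/b and 56.6% in +/b rats were above 0. In b/b rats, where 0.763% of all probe sets passed, 1 of the 21 did, and it was lower. Tm7sf2, a sterol reductase, fell by 1.12 ± 0.20 on the log2 scale (limma adjusted p = 0.0180), with mean signals of 1400 in jejunum and 3003 in duodenum. In +/b rats 0 of 21 passed by limma, with 7 at an unadjusted p under 0.05, against 5.36% of all probe sets. Tm7sf2 was there at -1.01 ± 0.20 (limma adjusted p = 0.113, and 0.0384 with the rat group as a block). Over both genotypes 1 of 21, again Tm7sf2, was lower without the block, where 1.4% of all probe sets passed. With that block 6 of 21 fell in the jejunum of b/b rats, where 2.44% of all probe sets passed, and 10 of 21 over both genotypes, where 4.49% did, and 0 rose. With the block as random 3 fell in b/b rats, Tm7sf2, Sqle and Fdps, and 7 fell over both genotypes. The values that follow are those of b/b rats with each rat group as its own block. Sqle, squalene epoxidase, was at -1.98 ± 0.36 (limma adjusted p = 0.0160, and 0.0497 with the block as random). Idi1, isopentenyl diphosphate isomerase, was at -1.56 ± 0.33 (0.0326 and 0.115). Fdps, farnesyl diphosphate synthase, was at -1.08 ± 0.23 (0.0330 and 0.0498). Mvd was at -1.54 ± 0.24 (0.00692 and 0.0678) and Cyp51 at -1.30 ± 0.26 (0.0248 and 0.0633). By genotype 0 of 21 changed by limma, and 0 had an unadjusted p under 0.05 in either segment. The median genotype effect was 0.09 in the jejunum and 0.33 in the duodenum.

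**Figure D4:**
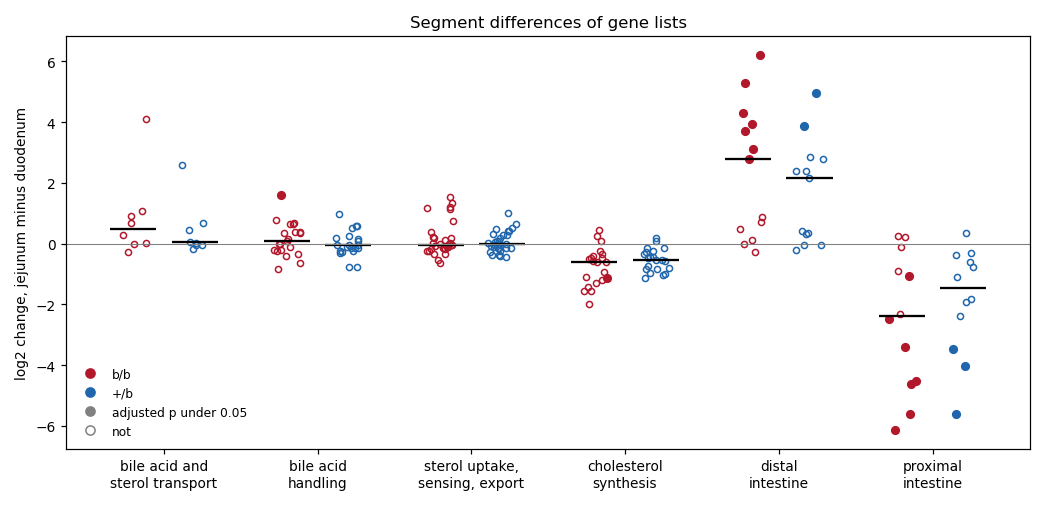
Log2 change, jejunum minus duodenum, of each tested gene of the bile acid and sterol transport set, of 3 lists of related genes and of 2 lists of segment markers, red for b/b and blue for +/b, filled where the limma adjusted p is under 0.05; bars are medians. In the fit without the rat group block shown here, the filled points of the related lists are Abcb1a at 1.59 and Tm7sf2 at -1.12, both in b/b rats, and the distal markers have 7 of 13 filled in b/b and 2 of 13 in +/b rats.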

How the data were processed

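RNA from 12 mucosal scrapes was hybridised to Affymetrix arrays, 1 per sample. The deposited values are linear signal intensities per probe set, and MAS5 is named for 10 of the 12 arrays, per the submitters' processing notes; the sources used here do not give its version or settings. Each array was scaled to a 2% trimmed mean of 500. The 57 control probe sets were left out, and the 17694 probe sets that averaged 100 or more across the 12 arrays were tested. A model with 4 group means was fitted to log2(signal + 16) with limma 3.58.1 in R 4.3.3 (eBayes with intensity trend), two-sided, with Benjamini-Hochberg adjustment over all probe sets tested and a threshold of 0.05. Intensities carry no read depth, so the number of arrays limits the precision.

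Per the series design, both segments of a rat group carry 1 replicate number, so the rat group served as a block in an alternative fit. Deviations from the group means correlated at 0.16 to 0.38 between both segments of a rat group. Arrays of 1 number from different genotypes share no animals, and theirs correlated at -0.06 to 0.16 in the duodenum and 0.12 to 0.42 in the jejunum. These values therefore cannot tell shared rats from a shared replicate number. The labels do not say how the rats of a group were chosen, so p-values measure the spread between such groups.

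Every member gene is described on every probe set. Of the related lists, genes that passed without the block and otherwise some of those of smallest p are named, on the brightest probe set. Not every gene that passed only with the block is named. Sqle, Idi1, Mvd and Cyp51 were chosen after their values were seen. Genes with similar levels were sought for members whose group means span at least 1. The members, lists and markers were chosen with earlier results of these data known. The fits were tested on simulated data. Alternatives covered scaling, pseudocount, filter, trend, array weights, blocks and each array left out. Promoters came from RefSeq tables (GRCr8), and probe sets were not placed on the genome here. One planned motif search is not reported here. Detection calls were not used here.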

Additional observations from a re-analysis of the deposited data

How the results depend on the processing

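The Fabp6 difference between segments was above 0 in all 24 alternatives over both genotypes, from 2.54 with a pseudocount of 64 to 3.90 with a pseudocount of 1. The count of the 8 genes that passed, 1 over both genotypes, became 0 without the intensity trend (limma adjusted p = 0.0514 for Fabp6), 3 with array weights and 2 with the replicate block by rat group, and lay between 0 and 3 with each array left out. It was 0 without +/b jejunum replicate 1 or 2, and 3 without b/b duodenum replicate 1. In b/b rats the count, 0, became 1 without rescaling, 3 with array weights, 1 without both rescaled arrays, 2 with the replicate block by rat group and 1 with that block as random, and lay between 0 and 2 with each array left out. It was 1 without +/b duodenum replicate 2 and 2 without b/b duodenum replicate 1. In +/b rats the count, 0, became 5 without rescaling, when 8673 of all probe sets passed, against 10. Over all probe sets the block by rat group passed 431 in b/b and 86 in +/b rats, against 135 and 10. For array weights, the random block and arrays left out, no count over all probe sets is given here. The member counts of those fits therefore cannot be set against a share of all probe sets. Both genotype comparisons and the interaction kept 0 of the 8 genes in every alternative run; pairing by replicate number across genotypes was run for the genotype comparisons only. Those numbers share no animals, and their correlations were -0.06 to 0.16 in the duodenum and 0.12 to 0.42 in the jejunum. The causes of these shifts were not tested. With 3 arrays per group and dim signals for Slc10a2, Abca1 and duodenal Fabp6, changes of the size of their errors could not be detected.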
